A study of Mus musculus with 8 samples.

Results

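The kidney both recovers filtered glucose and makes new glucose, and 10 genes of these tasks and of their insulin control were examined in mouse kidney RNA. They were chosen by name, as glucose and fructose transporters (Slc5a1, Slc5a2, Slc2a1, Slc2a2, Slc2a5), gluconeogenic enzymes (Pck1, G6pc, Fbp1) and the first proteins of the insulin pathway (Insr, Irs2). All 10 were found, with 12 probes among the 36493 probes and 25127 genes and unnamed transcripts that could be tested. Insr had 3 probes and each other gene had 1. The RNA came from whole kidneys of CD-1 mice, a laboratory stock, in a control group given physiological serum (4 arrays) and a group given tacrolimus at 1 mg/kg/day for 28 days (4 arrays). Age, sex and genotype are not given in the labels, and no arm combined tacrolimus with another agent. The labels number the replicates without naming animals, and the spread that p-values rest on may therefore be technical in part. Tacrolimus inhibits calcineurin and is used against transplant rejection, and its known side effects include kidney toxicity and raised blood glucose.

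Glucose that passes the glomerular filter is taken up by the proximal tubule, mainly by the sodium-glucose cotransporter SGLT2 in its first segments, and SGLT1 takes up what remains further along. Facilitative transporters of the GLUT family then let it leave the cell towards the blood. The same tubule cells make glucose from lactate, glutamine and glycerol through phosphoenolpyruvate carboxykinase, fructose bisphosphatase and glucose-6-phosphatase. Insulin, acting through its receptor and adaptor proteins of the IRS family, to which IRS2 belongs, restrains that synthesis.

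None of the 10 genes differed between the groups at an adjusted p under 0.05 (limma), where 0.227% of all genes tested did (0.187% higher and 0.0398% lower under tacrolimus). None did at an unadjusted p under 0.05 either, where 15.5% of all genes did (7.04% higher and 8.42% lower). In a fit over probes none of the 12 passed, where 0.101% of all probes did. On each of the 12 probes the values of the groups overlapped, while 9.3% of all probes tested had groups without overlap. Differences, given as tacrolimus minus control on the log2 scale, were above 0 for 5 genes and below 0 for 5. Their median was -0.01, beside -0.05 over all genes tested. With 4 arrays per group the precision was limited: the 95% interval of the difference stayed within 1.5-fold in either direction for 6 genes and within 2-fold for 9, and Irs2 was the exception to the latter.

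All arrays lay on 1 slide and none of the spots examined was saturated. The share of spots well above background was 64.0% to 69.8% per array, and the 12 probes were so on all 8 arrays. Local background before subtraction had a mean of 21.8 to 22.1 intensity units in controls and 19.3 to 20.5 in tacrolimus samples. A level is the log2 of the signal divided by that array's 75th percentile, and since probes bind with different strength, levels are compared between arrays and never between genes. As a check of the tissue, all 20 measured markers of the proximal tubule were well above background on all 8 arrays. In whole kidney RNA, fewer cells of a type and less RNA per cell cannot be told apart.

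Slc5a2 encodes SGLT2, the transporter that recovers most of the filtered glucose. Its level on control replicates 1 to 4 was 6.56, 6.35, 6.50 and 6.50, and on tacrolimus replicates 1 to 4 it was 6.12, 6.46, 6.71 and 6.05. The control arrays lay close together (SD 0.09, n = 4), whereas the tacrolimus arrays spread on both sides of them (SD 0.31, n = 4), with replicates 1 and 4 lowest and replicate 3 highest of all 8. The difference was -0.14 ± 0.15 (SE, adjusted p = 0.675, limma), with a 95% interval from 0.712 to 1.15 times the control level. Without tacrolimus replicate 4 it was -0.05.

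Slc5a1 encodes SGLT1, which has a higher affinity for glucose and is also the glucose carrier of the intestine. Control replicates 1 to 4 gave -1.25, -1.10, -1.18 and -0.94, and tacrolimus replicates 1 to 4 gave -0.83, -0.86, -1.22 and -0.65. Tacrolimus replicates 1, 2 and 4 were above each control array, and replicate 3 was within the control range. The difference of 0.23 ± 0.13 (SE) did not pass (adjusted p = 0.427, limma; exact two-sided permutation p = 0.171), and its interval ran from 0.948 to 1.45 times control.

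The facilitative transporters at the blood side of the cell differed less. Slc2a2 encodes GLUT2, the partner of SGLT2 in glucose recovery and the sugar transporter of hepatocytes. It read 3.85, 3.97, 3.79 and 3.83 on control replicates 1 to 4 and 3.76, 3.95, 4.12 and 3.74 on tacrolimus replicates 1 to 4. Both the lowest and the highest of the 8 values belonged to tacrolimus arrays, the difference was 0.03 ± 0.11 (SE), and the interval from 0.861 to 1.21 times control was among the narrowest of the 10 genes.

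Slc2a1 encodes GLUT1, a transporter of many cell types, among them endothelium and later tubule segments. Control replicates 1 and 2 read 2.29 and 2.31 and replicates 3 and 4 read 2.63 and 2.68, while tacrolimus replicates 1 to 4 read 2.75, 2.47, 2.10 and 2.66. The tacrolimus arrays reached both above and below the control range, and the difference was 0.02 ± 0.16 (SE, adjusted p = 0.959, limma), changing sign under 5 of the 19 alternative settings tried. None of the 9 measured endothelial markers had an unadjusted p under 0.05 (limma), and their summed log2 level was 5.48 to 5.73 on control and 5.48 to 5.67 on tacrolimus arrays. The part of endothelium in the Slc2a1 values was not tested.

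Slc2a5 encodes GLUT5, the fructose transporter of the apical membrane. Control replicate 1 read 5.84 and the other control arrays 4.96, 4.80 and 5.14. On tacrolimus replicates 1 to 3 the level was 5.66, 5.41 and 5.76, and on replicate 4 it was 4.71, the lowest of the 8. A high array in the control group and a low one in the tacrolimus group thus left SDs of 0.46 and 0.47 (n = 4 each), so that the difference of 0.20 ± 0.29 (SE, adjusted p = 0.766, limma) had an interval from 0.729 to 1.81 times control. Leaving out control replicate 1 gave 0.42, and leaving out tacrolimus replicate 4 also gave 0.42.

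**Figure D1:**
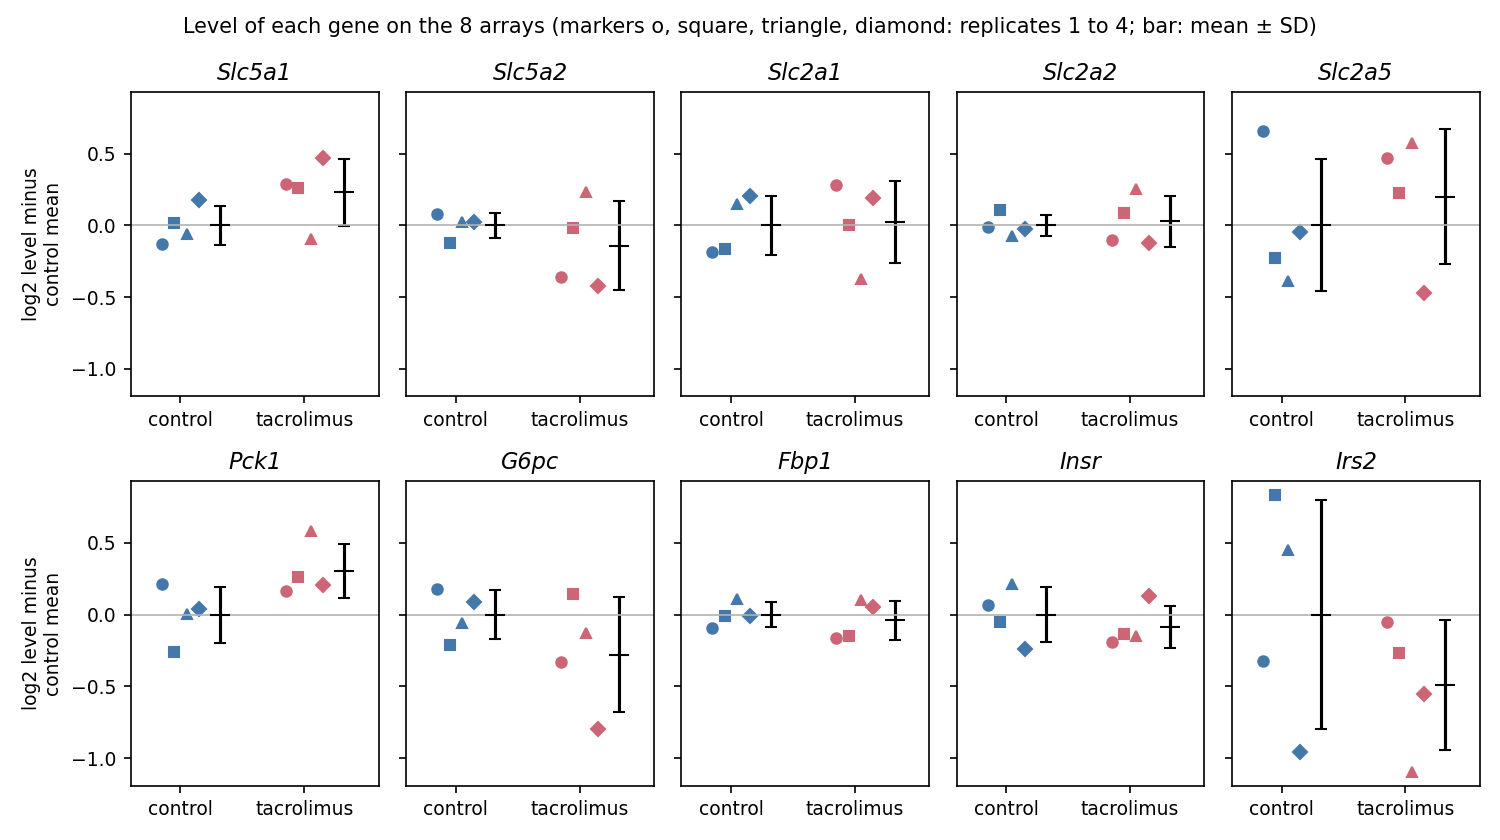
Level of each of the 10 genes on each array (vertical axis, log2 level minus the mean of the 4 control arrays; Insr by its brightest probe), in control (blue) and tacrolimus (red) samples, with the marker shape giving the replicate number and the black bar the mean ± SD (n = 4). The groups overlap for every gene, and Irs2 and Slc2a5 show the widest scatter within groups.

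Among the gluconeogenic enzymes, Pck1 and G6pc had differences of opposite sign, and neither passed. Pck1 encodes the cytosolic phosphoenolpyruvate carboxykinase, which commits oxaloacetate to glucose synthesis and which in kidney also responds to acidosis. Its level was 7.01, 6.54, 6.80 and 6.83 on control replicates 1 to 4 and 6.96, 7.06, 7.38 and 7.01 on tacrolimus replicates 1 to 4. Only control replicate 1 reached into the tacrolimus range. The difference of 0.30 ± 0.13 (SE), a ratio of 1.24, had the lowest p of the 10 genes (unadjusted p = 0.0518, adjusted p = 0.325, limma; exact two-sided permutation p = 0.0857). The interval ran from 0.998 to 1.53 times control, and the difference stayed between 0.21 and 0.38 when single arrays were left out.

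G6pc encodes the catalytic subunit of glucose-6-phosphatase, the last step before free glucose. It read 6.25, 5.86, 6.01 and 6.16 on control replicates 1 to 4, and 5.74, 6.21, 5.94 and 5.27 on tacrolimus replicates 1 to 4. Tacrolimus replicate 4 was the lowest of the 8, replicate 1 was just below the control range, and replicates 2 and 3 were within it. The difference was -0.28 ± 0.20 (SE, adjusted p = 0.508, limma), with an interval from 0.605 to 1.13 times control, and without tacrolimus replicate 4 it was -0.10.

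Fbp1 encodes fructose-1,6-bisphosphatase, the enzyme between these steps. The level on control replicates 1 to 4 was 8.34, 8.42, 8.54 and 8.42, and on tacrolimus replicates 1 to 4 it was 8.27, 8.28, 8.53 and 8.48. Its groups were nearly alike in mean (8.43 ± 0.08 and 8.39 ± 0.13, SD, n = 4 each) and its interval, from 0.834 to 1.13 times control, was the narrowest of the 10.

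Promoter sequences came from RefSeq (GRCm38.p6), where 8 of the 10 genes were matched and Slc5a2 and Insr were not. They are shown for Pck1 and G6pc, the enzymes of opposite sign, as the 250 bases before the start of transcription, 5′ to 3′ on the plus strand of both genes. Capitals mark the motifs found.
Pck1, chr2:173152823-173153072: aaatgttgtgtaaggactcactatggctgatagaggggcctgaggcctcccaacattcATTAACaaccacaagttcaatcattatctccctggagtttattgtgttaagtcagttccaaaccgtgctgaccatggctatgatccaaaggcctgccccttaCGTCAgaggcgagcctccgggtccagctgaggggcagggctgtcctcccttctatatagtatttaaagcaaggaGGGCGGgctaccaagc
G6pc, chr11:101367466-101367715: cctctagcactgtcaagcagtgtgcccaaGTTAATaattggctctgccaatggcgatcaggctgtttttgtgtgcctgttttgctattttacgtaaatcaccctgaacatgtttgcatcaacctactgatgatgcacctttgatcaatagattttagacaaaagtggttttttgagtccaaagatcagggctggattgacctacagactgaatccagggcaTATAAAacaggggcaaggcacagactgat

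Matches were sought on both strands in windows of 250 bases before to 50 after the start, and no matches in the 8 windows overlapped each other. The half-site GTTAAT of HNF1, a transcription factor of proximal tubule and liver, begins 221 bases before the start in G6pc and, on the other strand, 192 bases before it in Pck1. It was in 2 of the 8 windows, and in 7.1% of the 32851 promoters of the table. The core CGTCA of the cyclic AMP response element, through which fasting hormones act on gluconeogenic genes, begins 90 bases before the start of Pck1. That core was in no other of the 8 windows and in 20.8% of all promoters. G6pc carries the TATA box TATAAA beginning 29 bases before its start, as 13.6% of promoters do anywhere in the window. The GC box GGGCGG was in 5 of the 8 windows (Fbp1, Irs2, Pck1, Slc2a1 and Slc2a5) and in 35.7% of all. The E-box CACGTG was in those of Irs2 and Slc5a1 and in 7.15% of all. Neither the forkhead core GTAAACA nor the NFAT core GGAAAA was in these 8 windows, where 3.65% and 23.4% of all promoters hold them. Each motif was sought only in the exact letters given, and variant forms of a site were not sought. A match or its absence describes letters in a window and not the binding of a factor.

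Insr encodes the insulin receptor, and its 3 probes allow the measurement to be compared with itself. The array annotation places them on chromosome 8 of the mm9 assembly, on the minus strand, at 3151667 to 3151726, 3155472 to 3155531 and 3154024 to 3154083. The first and brightest read 0.32, 0.20, 0.46 and 0.01 on control replicates 1 to 4 and 0.06, 0.11, 0.10 and 0.38 on tacrolimus replicates 1 to 4. The second read -1.37, -1.06, -0.97 and -0.92 and then -1.24, -1.16, -0.91 and -1.53, and the last -1.69, -1.72, -1.39 and -1.70 and then -1.93, -1.85, -1.74 and -1.40. All 3 gave small differences below 0, of -0.09, -0.13 and -0.10, with adjusted p between 0.727 and 0.785 in a limma fit over all probes. They did not order the arrays alike: tacrolimus replicate 4 was the highest tacrolimus array on the first and last probes and the lowest of all 8 on the second.

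Irs2 encodes an adaptor that passes the signal from the receptor to phosphoinositide 3-kinase, and its transcript is known to fall with insulin and to rise with fasting in liver. Its probe, of 60 bases, lies on chromosome 8 from 11004490 to 11004549 (mm9, minus strand). It is shown because it recorded both the largest difference and the largest scatter of the 10 genes.
Irs2 probe: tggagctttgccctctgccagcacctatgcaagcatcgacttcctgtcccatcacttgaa

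The level of Irs2 was 2.75, 3.91, 3.52 and 2.12 on control replicates 1 to 4, and 3.02, 2.81, 1.98 and 2.52 on tacrolimus replicates 1 to 4. Control replicates 2 and 3 stood above all other arrays, and control replicate 4 and tacrolimus replicate 3 were lowest. The fitted difference of -0.49 ± 0.39 (SE) was smaller than the control SD of 0.80 (n = 4) and did not pass (adjusted p = 0.563, limma; exact two-sided permutation p = 0.314). The interval, from 0.381 to 1.33 times control, was the widest of the 10 genes. The difference was -0.21 without control replicate 2 and -0.81 without control replicate 4.

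**Figure D2:**
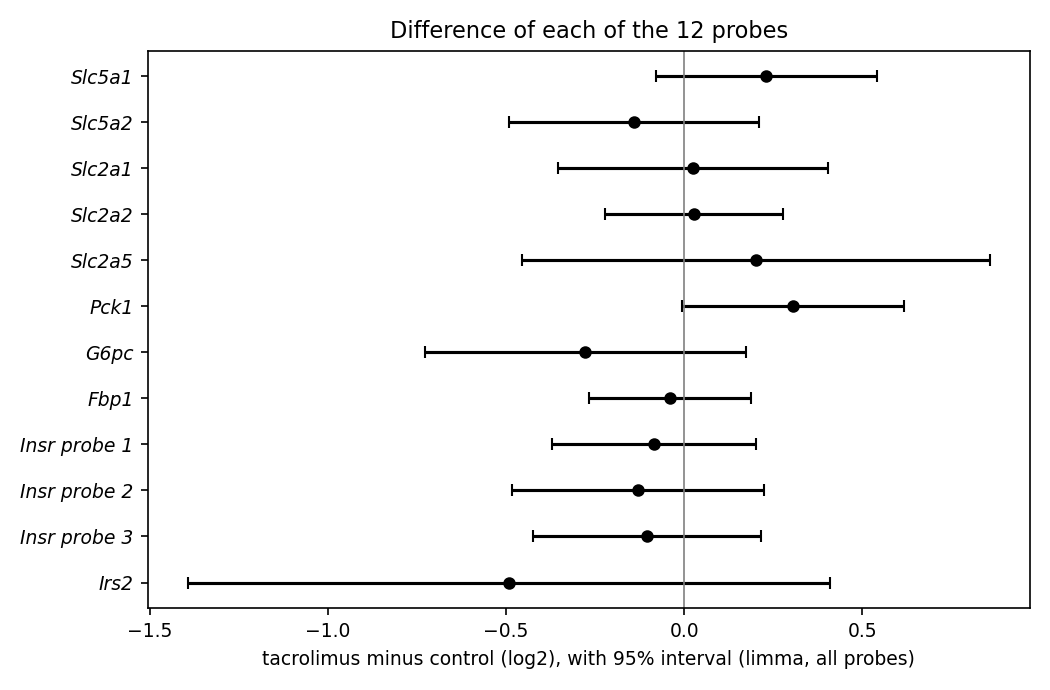
Difference between tacrolimus and control (horizontal axis, log2) for each of the 12 probes, as estimate and 95% interval from the limma fit over all 36493 probes. The interval of each probe includes 0, and that of Irs2 is the widest.

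Scatter between arrays of the same group set some of these genes apart more than treatment did. The SD within groups was 0.65 for Irs2, above that of 99.0% of the 3767 genes whose mean level lay within 1 log2 unit of it, whose median SD was 0.15. For Slc2a5 it was 0.47, above 95.8% of 1769 such genes, and for G6pc 0.31, above 91.4% of 1417. Slc5a2, Slc2a1 and Pck1 had SDs of 0.23, 0.25 and 0.19, which placed them at the 87.3, 85.0 and 82.6 percentiles. Slc5a1, Slc2a2 and Insr were near the middle, at the 47.3, 46.2 and 46.5 percentiles, and Fbp1, with 0.11, was at the 9.42 percentile of 191 genes. These percentiles are descriptions with no test, and feeding state and time of day are not given in the labels.

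**Figure D3:**
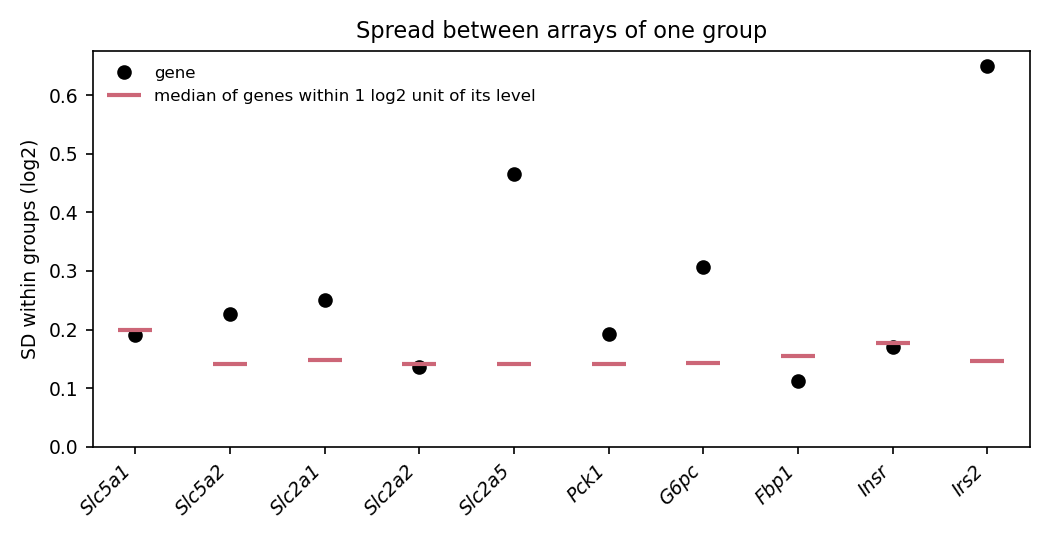
SD between arrays within groups (vertical axis, log2, pooled over control and tacrolimus) for each of the 10 genes (black points), beside the median SD of genes within 1 log2 unit of its mean level (red bars). Irs2, Slc2a5 and G6pc lie far above their bars, and Fbp1 lies below.

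Ratios between the genes on the same array do not depend on a scaling factor applied to the array. All 45 pairs were compared, a step added after seeing the data. The groups did not overlap in 2 of them (4.44%). The log2 ratio of the Pck1 signal to the G6pc signal was 0.76, 0.68, 0.79 and 0.68 on control replicates 1 to 4 and 1.22, 0.85, 1.44 and 1.74 on tacrolimus replicates 1 to 4. Its mean was 0.73 ± 0.06 in controls and 1.31 ± 0.37 under tacrolimus (SD, n = 4 each), with each tacrolimus array above each control array. The ratio of Slc5a2 to Pck1 was 0.734 times its control value and also lower on 4 of 4 arrays. Both had the smallest exact two-sided permutation p that 4 against 4 arrays can give (0.0286), and adjusted over the 45 pairs it was 0.643, so that neither passed. Pck1 set in the same way against each other gene tested gave groups without overlap in 23.4% of cases, and G6pc in 6.65%. The share among the 45 pairs was below both.

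Genes around these 10 were taken in 5 lists of other hexose transporters, other gluconeogenic enzymes, entry of substrates, other insulin signalling and transcriptional regulators. All 93 were measured and none was called (limma, adjusted p under 0.05), and 10 had an unadjusted p under 0.05, 6 of them higher and 4 lower under tacrolimus. That share of 10.8% is below the 15.5% over all genes.

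Of 15 other hexose transporters 1 (6.67%, beside 15.5% of all genes) had an unadjusted p under 0.05 (limma). This was Slc2a6, a facilitative transporter of myeloid cells. It differed by 0.60 ± 0.22 (SE, adjusted p = 0.260, limma), and its groups overlapped. Tacrolimus replicates 1 to 3 read -2.07, -2.06 and -2.34, above each control array. Replicate 4, at -3.04, was within the control values of -2.88, -2.79, -3.20 and -3.05. Of 11 macrophage markers 10 (90.9%, beside 15.5% of all genes) had an unadjusted p under 0.05 (limma), all higher. Their summed log2 level was 5.11 to 5.52 on control and 5.65 to 6.16 on tacrolimus arrays. Lyz1, Mrc1 and C1qa were among the 10. The remaining marker, Csf1r, the brightest of the 11, differed by 0.06 (unadjusted p = 0.585, limma). Cd163 was at or near background on the 8 arrays, and the part of macrophages in the Slc2a6 value was not tested. Slc5a4b, a relative of SGLT1 that was well above background on 3 of 4 arrays in each group, differed by 0.29, Slc5a10, a mannose and fructose cotransporter, by -0.11, and the inositol cotransporter Slc5a11 by -0.13 (adjusted p between 0.644 and 0.763, limma). The median of the list was 0.01.

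In the 17 other gluconeogenic enzymes, most of them shared with glycolysis, 14 differences were below 0, but they were small, with a median of -0.08 against -0.05 over all genes. The phosphoglycerate mutase Pgam1 differed by -0.21 ± 0.09 (SE). It was the single gene of this list with an unadjusted p under 0.05 (limma), a share of 5.88% beside 15.5% of all genes. The mitochondrial aspartate aminotransferase Got2 differed by -0.22, the triosephosphate isomerase Tpi1 by -0.18 and the enolase Eno1 by -0.17 (adjusted p between 0.322 and 0.395 for these and Pgam1, limma).

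The 20 genes by which substrates enter the pathway had a median of -0.11, with 15 differences below 0. Of the 20 genes 3 (15%) had an unadjusted p under 0.05 (limma), all lower under tacrolimus, near the 15.5% over all genes. Tkfc, the triokinase that follows fructokinase in fructose breakdown, differed by -0.36 ± 0.11 (SE, adjusted p = 0.180, limma) and its groups did not overlap. Groups did not overlap for 10.1% of all genes tested. The lactate transporter Slc16a1 differed by -0.34 ± 0.13 with no overlap either, the sorbitol dehydrogenase Sord by -0.26 and the fructokinase Khk by -0.18. The 20 markers of the proximal tubule, where these enzymes are made, had a median of -0.08. An unadjusted p under 0.05 (limma) was found for 3 of them, all lower, which is also 15%. Their summed log2 level was 11.3 to 11.6 on control and 11.2 to 11.5 on tacrolimus arrays. The part of tubule mass in these values was not tested.

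Insulin signalling beyond Insr and Irs2 gave 2 of 21 genes (9.52%, beside 15.5% of all genes) with an unadjusted p under 0.05 (limma). Both were higher and both are known as modulators of the receptor's signal. Socs3, an inhibitor of cytokine and insulin signalling, was -0.43, -0.14, -0.85 and -0.83 on control replicates 1 to 4 and 0.57, 1.03, 0.16 and 0.27 on tacrolimus replicates 1 to 4. Every tacrolimus array was above every control array. Groups did not overlap for 3 of the 21 genes, beside 10.1% of all genes tested. Socs3 and Sh2b2 were among these, and the remaining gene was lower under tacrolimus. The 2.10-fold difference of Socs3 did not pass (adjusted p = 0.0935, limma). With the replicate number as a block it did (adjusted p = 0.0323, in a range of 0.0323 to 0.573 over all settings). The macrophage markers described for Slc2a6 were higher on the same 4 arrays, with 10 of 11 at an unadjusted p under 0.05, and their part in the Socs3 values was not tested. The adaptor Sh2b2 differed by 0.48 ± 0.18 (SE, adjusted p = 0.266, limma), the kinase subunit Pik3cb by -0.20 and the kinase Gsk3a by -0.19.

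Of 20 transcriptional regulators of gluconeogenesis 3 had an unadjusted p under 0.05 (limma), all higher. That share of 15% is near the 15.5% over all genes. Cebpa, a factor needed for gluconeogenesis in liver and also made by fat and myeloid cells, read -0.77, -0.82, -0.89 and -0.22 on control replicates 1 to 4. On tacrolimus replicates 1 to 4 it read 0.51, 0.54, 0.37 and 0.07. The groups did not overlap, as for 2 of the 20 genes of this list and 10.1% of all genes tested. The 2.07-fold difference was just short of the threshold (adjusted p = 0.0552, limma). It passed under 5 of the 19 alternative settings (adjusted p from 0.0264 to 0.288 over all settings, limma). The summed level of the macrophage markers was also higher on the 4 tacrolimus arrays, and their part in the Cebpa values was not tested. All 11 measured fat cell markers had differences above 0, with a median of 1.83. An unadjusted p under 0.05 (limma) was found for 5 (45.5%, beside 15.5% of all genes). Some markers passed the filter on dim probes mainly or only through the tacrolimus arrays. Plin1, Adipoq and Cidec, all among these 5, are such genes, so that the count depends in part on the filter. The part of fat cells in the Cebpa values was not tested. The summed log2 level of the 11, to which the brightest gene, Fabp4, adds most, overlapped between the groups. It was 3.48 to 3.95 on control arrays and 3.54, 3.77, 4.11 and 5.71 on tacrolimus replicates 3, 2, 1 and 4. Of these markers Plin1 was well above background on no control array and Adipoq on 1, against 4 tacrolimus arrays each, and Lep was at or near background on all 8 arrays. Sik1, a kinase that restrains gluconeogenic transcription, differed by 0.38 ± 0.13 (SE), and Ppara, a fasting-responsive nuclear receptor, by 0.31 ± 0.11, and Esrra by -0.19 (adjusted p = 0.243, 0.252 and 0.400, limma).

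**Figure D4:**
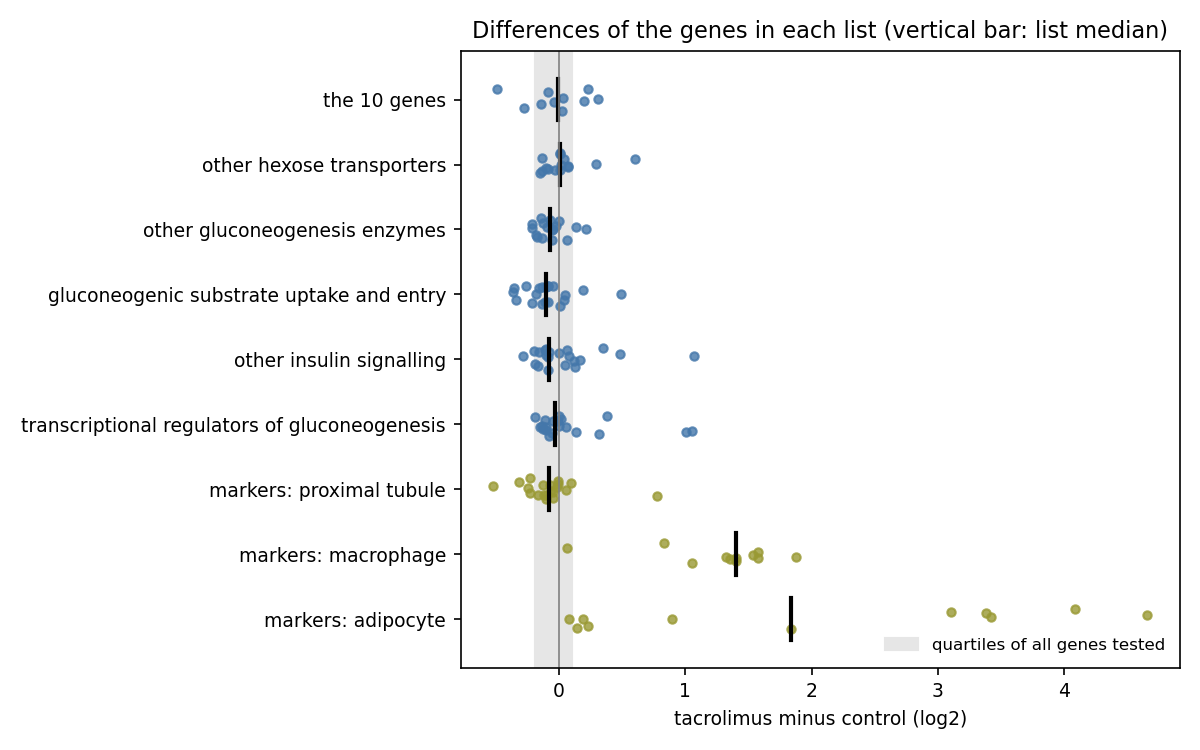
Difference between tacrolimus and control (horizontal axis, log2) of each measured gene in the 10 genes, the 5 lists around them (blue) and 3 lists of cell markers (olive), 1 point a gene, with the list median as a black bar and the quartiles of all genes tested as a grey band. The medians of the 10 genes and of the 5 lists lie within the band, and that of the macrophage markers lies at 1.40. The fat cell points include genes that passed the filter on dim probes mainly through the tacrolimus arrays.

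Tacrolimus replicate 4, the array with the highest summed level of fat cell markers, was also the lowest of the 8 for G6pc, Slc5a2, Slc2a2 and Slc2a5. It was the highest of the 8 for Slc5a1, at -0.65. For Slc2a1, Pck1, Fbp1, Irs2 and the brightest Insr probe it was within the range of the other arrays. The part of fat tissue in these values was not tested. Without this array the differences of G6pc, Slc5a2, Slc2a2 and Slc2a5 were -0.10, -0.05, 0.08 and 0.42.

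**Figure D5:**
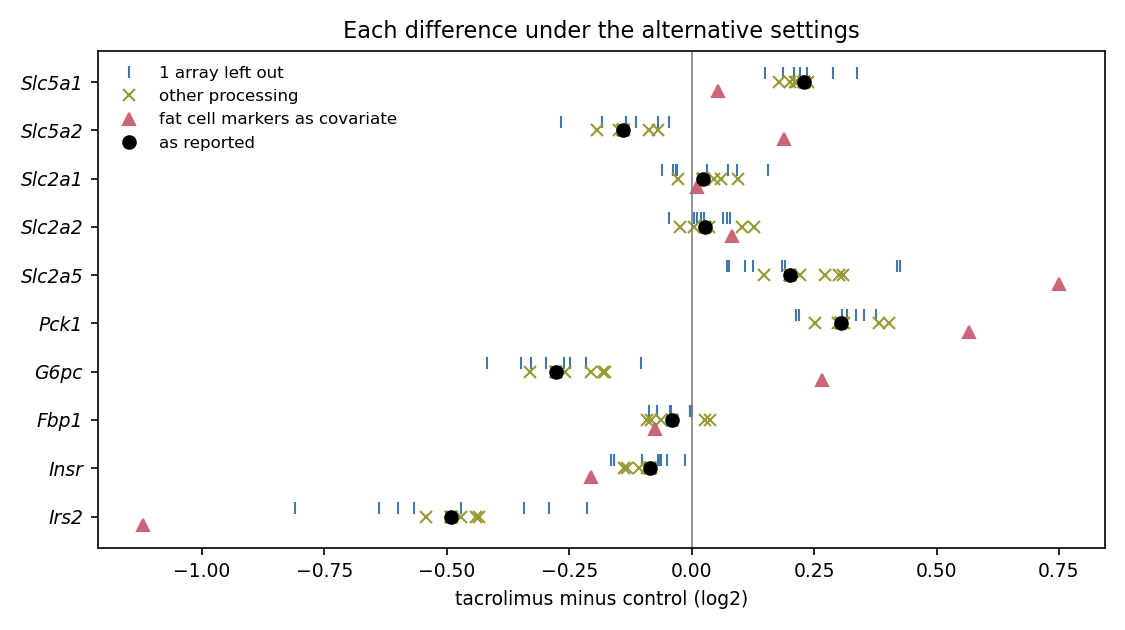
Difference between tacrolimus and control (horizontal axis, log2) of each of the 10 genes as reported (black), without single arrays (blue), under other processing (olive) and with the averaged level of Retn, Cfd, Cidec, Plin1 and Adipoq as a covariate (red). These 5 fat cell genes have an unadjusted p under 0.05 between the groups themselves (limma), so that the red points do not separate fat content from treatment. Pck1, Slc5a1 and Slc2a5 stay above 0 and Irs2 and Insr below it in all of these, and G6pc and Slc5a2 cross 0 with the covariate.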

How the data were processed

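Cy3-labelled RNA was hybridised to 1-colour Agilent arrays with 62976 features. Per the file headers, Feature Extraction 10.7.3.1 gave each spot a raw intensity, a local background and a background-subtracted, detrended processed intensity, not normalized between arrays. The deposited table holds log2 values, equal within 5e-09 to the quantile-normalized median intensity (not gene-centred; column medians 6.30 to 6.32). It served as an alternative. Limma is listed in the submitters' processing notes, without settings.

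Here, log2 processed intensity was set relative to the 75th percentile of each array. Control and outlier spots were dropped, and repeated spots were averaged per probe. Probes well above background on at least 4 arrays were tested with limma 3.58.1 in R 4.3.3 (two-sided, Benjamini-Hochberg), with the brightest probe per gene. Symbols were updated through RefSeq accessions (28026 probes matched). All 10 genes are named, and in each surrounding list the 4 genes with the lowest p. The genes and lists were chosen with earlier results of these data known. Alternatives varied scaling, background correction, filter, probe choice, variance model, weights, pairing, a covariate of 5 fat cell genes and the arrays included. Controls were on row 1 and tacrolimus arrays on row 2 of 1 slide, so that row and treatment cannot be told apart. Marker lists for adrenal cortex, liver and endothelium had no gene with an unadjusted p under 0.05 (limma; median differences -0.17, -0.15 and -0.05). All 8 measured erythroid markers had differences below 0, with a median of -0.48. Of these 1 (12.5%, beside 15.5% of all genes), Hbb-b2 at -0.87, had an unadjusted p under 0.05 (limma). The part of blood in the values was not tested.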

Additional observations from a re-analysis of the deposited data

Results flagged for a closer look

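A single array stood far from the other 3 of its group in 5 of the 64 groups of 4 examined, where chance flags about 1 in 20. On the brightest Insr probe tacrolimus replicate 4 was high, at 0.38, and its gap to the next array was 0.839 of the group's range. On the last of the 3 Insr probes control replicate 3 was high, at -1.39 (0.916 of the range). Among other genes, control replicate 1 was high for Slc16a1, at -2.94 (0.847). Control replicate 3 was low for Sh2b2, at -2.33 (0.963), and control replicate 4 was low for Ppara, at 3.98 (0.861).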

How the results depend on the processing

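None of the 10 genes and none of their 12 probes was called under the 19 alternative settings run, the lowest adjusted p being 0.210 (limma), for Slc5a1 without tacrolimus replicate 3. Signs changed in 12 of 190 gene values, none of them called. Slc2a1 was -0.028 with arrays centred on their median and -0.061 to 0.16 without single arrays (below 0 without control replicate 1 or 2 or tacrolimus replicate 1 or 4). Slc2a2 was -0.024 with that centring and -0.047 to 0.079 without single arrays (below 0 without tacrolimus replicate 3). Fbp1 was 0.037 with quantile normalization, 0.028 in the deposited table and -0.087 to 0.00032 without single arrays (above 0 without tacrolimus replicate 1). G6pc was 0.27 and Slc5a2 0.19 with the averaged level of Retn, Cfd, Cidec, Plin1 and Adipoq as a covariate; these 5 are the fat cell markers with an unadjusted p under 0.05 between the groups, so that the covariate carries the group difference and its values say nothing about fat content. Slc5a10 was -0.19 to 0.0079 and Slc5a11 -0.24 to 0.037 without single arrays (above 0 without tacrolimus replicate 2 and 1). Of the 93 surrounding genes 1 was called, Cebpa, with normexp, the deposited table, array weights, trend with robust estimation or the filter on all 8 arrays, and 1, Socs3, with the replicate block. The number of all genes called, 57, was 0 with this covariate (limma; 2186 at an unadjusted p under 0.05), 32 with no filter, 103 with the replicate block, 151 with the filter on all 8 arrays, 180 in the deposited table, 221 with trend and robust estimation, 285 with normexp and 309 with array weights. It was 7 to 56 without single arrays: 7, 13 and 13 without control replicates 2, 3 and 4, and 18, 22 and 33 without tacrolimus replicates 1, 2 and 3. Replicate numbers are only numbers in the labels: deviations of same-numbered arrays correlated by 0.02 to 0.16, and 7 of 8 arrays correlated best with their own number, as a hint from the data. The block changed no other named call. The causes of these changes were not tested. With 4 arrays per group, the interval of the difference reached beyond 1.5-fold for Irs2, Slc2a5, Pck1 and G6pc. This interval is not a limit of detection, since calls rest on the adjusted p. The smallest change that would have been called was not tested for any of the 10 genes.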
